A study of Mus musculus with 18 samples.

Results

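The IL-6 family of cytokines, their receptors and their signal to Stat3 were described here by 10 genes out of the 36757 in the deposited count table, taken by symbol across all 18 libraries: the ligands *Il6*, *Il11*, *Lif* and *Osm*, the receptor chains *Il6ra*, *Il11ra1*, *Osmr* and *Il6st*, the transcription factor *Stat3* and the feedback inhibitor *Socs3*. RNA was sequenced from C57BL/6 mouse colorectal tissue after chronic colitis or colitis-associated cancer (CAC), and from organoids grown out of CAC tumors, in 3 libraries of each genotype in each of these 3 models. Every group had received dextran sulfate sodium (DSS), so there was no uninflamed control. The sample labels call the genotypes wild type (RNF138fl/fl in the treatment text) and RNF138-/-, a deletion of the ubiquitin ligase RNF138, and name no promoter or cell type for a Cre.

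Colitis mice, 6 to 8 weeks old at the start, drank 2% DSS for 7 days and plain water for 14 days, repeated this cycle 2 times, and were killed 4 weeks after the last DSS. CAC mice of the same age were first injected with the carcinogen azoxymethane (AOM, 10 mg/kg) and entered the DSS cycles 4 days later. Organoids came from tumor-bearing pieces of CAC intestine that were digested and cultured in matrigel, so both organoid genotypes carry the AOM and DSS treatment of the donor mice. The labels do not say whether replicates came from separate animals, and p-values therefore measure only the spread between these libraries.

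IL-6, IL-11, LIF and oncostatin M signal through receptors that share a signal-transducing chain, gp130, the product of *Il6st*. Gp130 activates Janus kinases, which phosphorylate STAT3, and STAT3 turns on genes for survival, wound repair and the acute phase, among them *Socs3*, whose product blocks the receptor in return. In the inflamed colon the family is known as a link between immune or stromal cells and the regrowth of the epithelium.

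The libraries held 11514716 to 24390082 counts in total (median 17332367). *Rnf138* itself was not lower in the libraries labelled RNF138-/-. In colitis the wild-type libraries had 15.6, 18 and 25.1 CPM (counts scaled to the size of each library, normalised by the TMM method) and the labelled knockouts 19.4, 18 and 19.1. In CAC the knockouts were the higher ones, at 39.7, 45.3 and 45.8 CPM against 27.6, 27.3 and 21.5 (log2 fold change 0.72, SE 0.14 and edgeR adjusted p = 0.0426), and in the organoids they had 50.3, 47.8 and 42.8 against 37.7, 53.5 and 55.7. The *Rnf138* counts thus go against the label. Whether these reads fall within the deleted part was not tested, and the samples are called libraries labelled RNF138-/- throughout. All 6 epithelial markers were detected in every group (summed 4219 to 13288 CPM per library). The organoid libraries also held the collagen genes and other fibroblast markers at 9097 to 49682 CPM summed, against 924 to 1733 in the tissues.

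The family was at its highest in the organoids, where *Il6* stood at 181 ± 56.0 CPM (SD, n = 3) in wild type against 0.261 ± 0.184 in wild-type CAC colon. Of the 10 genes, 7 were called higher in wild-type organoids than in wild-type CAC colon (17.5% of the 19390 genes tested were called higher) and 1, *Osm*, was called lower (26.8% of genes were called lower). A gene was called where it was at least 2-fold different and its adjusted p was below 0.05, by edgeR's quasi-likelihood test with Benjamini-Hochberg adjustment over all genes tested. Among the libraries labelled RNF138-/-, 8 were called higher in the organoids (17.9% of genes) and 0 lower (26.5% of genes, edgeR; 0 of these had an unadjusted p under 0.05, and DESeq2 also called 0 lower). Between CAC and colitis, wild type gave 1 call, *Il11* (9.78% of 19390 genes were called higher and 3.81% lower). The labelled knockouts gave 4 calls higher (17.5% of genes), *Il11*, *Lif*, *Osm* and *Socs3*, and 1 lower (19.6% of genes), *Il11ra1*.

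Between the genotypes, 4 of the 10 genes were called higher in the labelled RNF138-/- organoids, *Il11*, *Lif*, *Osm* and *Osmr* (7.94% of 15294 genes were called higher). In CAC colon 0 were called in either direction (5.37% of 17752 genes, 0.546% being called higher, edgeR), with 6 at an unadjusted p under 0.05, and DESeq2 called 3, *Lif*, *Osm* and *Socs3*. Over all genes DESeq2 called 560 higher and 2097 lower there, against 97 and 857 by edgeR. The edgeR counts over all genes depended on which library was left out. They were 0 and 0 without the first or the second labelled knockout CAC library, and 6 and 103 without the third. Without the first wild-type CAC library they were 6 and 281, without the second 99 and 573, and without the third 168 and 968. In colitis, 7 of the 10 genes passed the filter on low counts and 0 were called (0.0902% of 16623 genes, edgeR), with 2 at an unadjusted p under 0.05 and 0 by DESeq2. The share of all genes at that unadjusted p was not counted, so the 6 and the 2 are no result about these genes. *Il6*, *Il11* and *Osm* were too low there to be tested.

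Per length of transcript, the order of the members differed between tissue and organoids. In wild-type colitis colon *Stat3* had the highest level, 14.0 ± 0.980 RPKM (SD, n = 3, CPM divided by the exon length of the annotation in kilobases), followed by *Il6st* at 12.5 ± 1.47 and *Il11ra1* at 11.2 ± 2.31. The 4 ligands were at the bottom together with *Osmr* (1.11 ± 0.302), from *Lif* at 1.09 ± 0.206 to *Il6* at 0.00850 ± 0.0147. In wild-type organoids *Il6* was first with 74.4 ± 23.1 RPKM, then *Il11* with 60.8 ± 19.2 and *Socs3* with 57.2 ± 11, whose ranges overlap. *Osm* was last there at 0.0198 ± 0.0343.

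The stretches just before the transcription start of 9 of the 10 genes were found among the RefSeq promoter windows of GRCm38.p6, the patch level of the mm10 build (11 windows, since *Il11* and *Il11ra1* have a pair of starts each). Shown here are those of the 3 ligands that rose most from tissue to organoids and of the inhibitor *Socs3*, 250 bases up to the start, 5′ to 3′ on the gene's own strand. Capitals mark matches on either strand to the AP-1 motif TGAGTCA, the STAT motif TTCNNNGAA or the NF-κB motif, which do not overlap one another here. The motifs and sequences were chosen with the values in view.
*Il6*, chr5:30012864-30013113, plus strand: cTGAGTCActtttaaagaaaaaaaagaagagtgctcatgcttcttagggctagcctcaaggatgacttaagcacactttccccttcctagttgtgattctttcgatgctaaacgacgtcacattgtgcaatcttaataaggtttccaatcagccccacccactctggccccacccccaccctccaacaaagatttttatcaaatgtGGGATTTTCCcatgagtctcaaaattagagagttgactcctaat
*Il11*, chr7:4778142-4778391, minus strand: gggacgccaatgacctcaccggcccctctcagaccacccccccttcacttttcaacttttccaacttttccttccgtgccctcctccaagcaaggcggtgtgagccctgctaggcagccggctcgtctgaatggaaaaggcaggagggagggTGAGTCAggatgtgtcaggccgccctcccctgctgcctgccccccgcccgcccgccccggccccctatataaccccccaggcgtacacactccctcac
*Lif*, chr11:4257318-4257567, plus strand: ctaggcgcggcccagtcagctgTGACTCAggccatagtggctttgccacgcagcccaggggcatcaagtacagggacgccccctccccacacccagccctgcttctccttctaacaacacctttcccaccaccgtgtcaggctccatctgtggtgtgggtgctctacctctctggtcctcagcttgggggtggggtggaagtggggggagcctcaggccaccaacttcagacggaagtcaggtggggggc
*Socs3*, chr11:117969367-117969616, minus strand: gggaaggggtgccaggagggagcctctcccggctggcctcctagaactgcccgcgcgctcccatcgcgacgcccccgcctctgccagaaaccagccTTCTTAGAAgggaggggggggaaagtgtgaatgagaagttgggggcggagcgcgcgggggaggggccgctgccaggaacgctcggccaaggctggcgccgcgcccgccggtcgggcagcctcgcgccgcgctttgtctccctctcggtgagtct
The AP-1 letters begin 249 bases before the start of *Il6*, 98 before that of *Il11* and 228 before that of *Lif*, and 5.2% of all 32851 promoter windows hold them. The NF-κB match of *Il6* begins 44 bases before its start (4.51% of all windows), and the STAT match of *Socs3* 154 bases before its start (8.3%). These shares are over the whole windows, which also hold 50 bases after the start that are not shown. The *Il11* stretch belongs to the inner of its starts and lies within the annotated span of the gene. The stretch before the outer start of *Il11* and those of *Il6ra*, *Il11ra1*, *Osmr*, *Il6st* and *Stat3* held none of these letters, which says nothing about the factors. A match is a description of letters and not a measured binding site.

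*Il6* (ENSMUSG00000025746.11, chromosome 5, 30013114 to 30019981, plus strand) encodes the family's founding cytokine, made by macrophages and activated fibroblasts. It was close to absent in colitis colon, with 0, 0 and 1 count in the wild-type libraries and 0.658, 0 and 0.258 CPM in the labelled knockouts. In CAC the wild-type libraries had 0.123, 0.470 and 0.189 CPM and the labelled knockouts 2.50, 0.486 and 0.498. The CAC groups did not overlap, but the log2 fold change of 1.96 did not pass (SE 0.88 and edgeR adjusted p = 0.168) and was 0.76 without the first labelled knockout library. The first of the labelled knockouts was 5.14 times the lowest. In the organoids the level was of another order, at 211, 116 and 214 CPM in wild type and 196, 271 and 192 in the labelled knockouts. The genotypes overlapped (log2 fold change 0.25, SE 0.24 and edgeR adjusted p = 0.442). Against CAC colon, *Il6* rose by a log2 fold change of 9.27 (SE 0.72 and edgeR adjusted p = 8.5e-08) in wild type and of 7.61 (SE 0.62 and edgeR adjusted p = 9.92e-08) in the labelled knockouts. The count of 14 in all wild-type CAC libraries against 1 in wild-type colitis is a ratio of 15.1 per TMM-scaled library size. Its exact 95% interval of 2.30 to 638 covers counting error only. By edgeR that comparison did not pass (adjusted p = 0.154). The ratio between the colitis genotypes, whose libraries overlap, was 15.7 (16 counts against 1). Without the second wild-type CAC library the log2 fold change of wild-type organoids against CAC was 10.15, and without the first labelled knockout CAC library that of the labelled knockouts was 8.77.

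*Il11* (ENSMUSG00000004371.14, chromosome 7, 4772373 to 4782859, minus strand) encodes a cytokine of stromal cells that acts on epithelium and fibroblasts. Colitis libraries had 0.223, 0.393 and 0.310 CPM in wild type and 0.898, 0.540 and 0.206 in the labelled knockouts, and the groups overlapped. In CAC the wild-type libraries had 1.17, 7.29 and 0.663 CPM and the labelled knockouts 16.2, 5.34 and 3.44. The spread was wide within both groups (log2 fold change 1.37, SE 0.97 and edgeR adjusted p = 0.345). The value was 0.44 without the first labelled knockout library and 3.11 without the second wild-type one. Every organoid library was far above these, with 164, 131 and 84.5 CPM in wild type and 329.9, 388 and 382 in the labelled knockouts. The organoid genotypes did not overlap, and *Il11* rose 2.82-fold (log2 fold change 1.5, SE 0.22 and edgeR adjusted p = 0.00323). With 1 estimate of spread over all 18 libraries the adjusted p of this difference was 0.0829. From colitis to CAC *Il11* rose by a log2 fold change of 3.36 in wild type (SE 0.89 and edgeR adjusted p = 0.0151), which rested on the second wild-type CAC library. Without that library the edgeR value was 1.57 (adjusted p = 0.22), and without the first wild-type colitis library the adjusted p was 0.0683. In the labelled knockouts the rise was 3.93 (SE 0.79 and edgeR adjusted p = 0.000655), or 3.02 without the first labelled knockout CAC library. From CAC colon to organoids *Il11* rose by 5.28 in wild type (SE 0.71 and edgeR adjusted p = 1.35e-05) and by 5.47 in the labelled knockouts (SE 0.70 and edgeR adjusted p = 7.53e-06). Without the second wild-type CAC library the former was 7.03, and without the first labelled knockout CAC library the latter was 6.37.

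*Lif* (ENSMUSG00000034394.14, chromosome 11, 4257557 to 4272514, plus strand) encodes leukemia inhibitory factor, which signals through *Lifr* paired with gp130. Its colitis levels were nearly the same in all 6 libraries, at 4.58, 5.73 and 3.96 CPM in wild type and 4.73, 4.74 and 4.39 in the labelled knockouts (log2 fold change -0.05, SE 0.25 and edgeR adjusted p = 0.974). In CAC the values were 9.48, 8.61 and 3.88 CPM in wild type and 30.9, 22.3 and 11.8 in the labelled knockouts. These groups did not overlap and differed by a log2 fold change of 1.51, which missed the threshold by edgeR (SE 0.45, adjusted p = 0.0797) and passed by DESeq2 (1.53, adjusted p = 0.013). In the organoids wild type had 155, 84.0 and 170.4 CPM and the labelled knockouts 406, 582 and 393. These did not overlap, a 3.29-fold rise (log2 fold change 1.72, SE 0.27 and edgeR adjusted p = 0.00371). The wild-type change from colitis to CAC was 0.64 (SE 0.37 and edgeR adjusted p = 0.233), against a rise of 2.23 in the labelled knockouts (SE 0.37 and edgeR adjusted p = 0.000135). From CAC to organoids *Lif* rose by 4.20 in wild type (SE 0.39 and edgeR adjusted p = 4.29e-07) and by 4.41 in the labelled knockouts (SE 0.39 and edgeR adjusted p = 1.87e-07).

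*Osm* (ENSMUSG00000058755.3, chromosome 11, 4236420 to 4241026, plus strand) encodes oncostatin M, a product mainly of myeloid cells. It lies beside *Lif* on the same chromosome but followed another pattern, with its highest levels in CAC tissue and not in the organoids. Colitis values were 0.447, 0.506 and 0.495 CPM in wild type and 0.718, 0.600 and 0.464 in the labelled knockouts. CAC values were 0.862, 1.55 and 0.852 CPM in wild type and 6.17, 3.85 and 2.54 in the labelled knockouts. The groups did not overlap, and the log2 fold change of 1.86 just missed the threshold by edgeR (SE 0.45, adjusted p = 0.0555) and passed by DESeq2 (1.88, adjusted p = 0.00341). The wild-type organoids held 2 counts of *Osm* in all 3 libraries together, at 0, 0 and 0.135 CPM, and the labelled knockouts 97 counts, at 2.32, 1.01 and 3.36 CPM. This was a ratio of 46.6 with an exact 95% interval of 12.6 to 390.1 for counting error, and the call passed by edgeR (adjusted p = 0.00429). In wild type *Osm* was lower in the organoids than in CAC colon, with a ratio of 26.0 the other way (interval 6.88 to 220.2 and edgeR adjusted p = 0.000199). In the labelled knockouts the organoid and CAC libraries overlapped, with a log2 fold change of -0.92 (SE 0.48 and edgeR adjusted p = 0.109), or of -1.52 (adjusted p = 0.0126) without scaling factors. Summed macrophage markers in the organoids were 20.9 to 28.8 CPM in wild type and 30.4 to 46.1 in the labelled knockouts, and 3 of the 5 that could be tested were called higher in the latter. Their part in the difference of *Osm* was not tested.

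**Figure D1:**
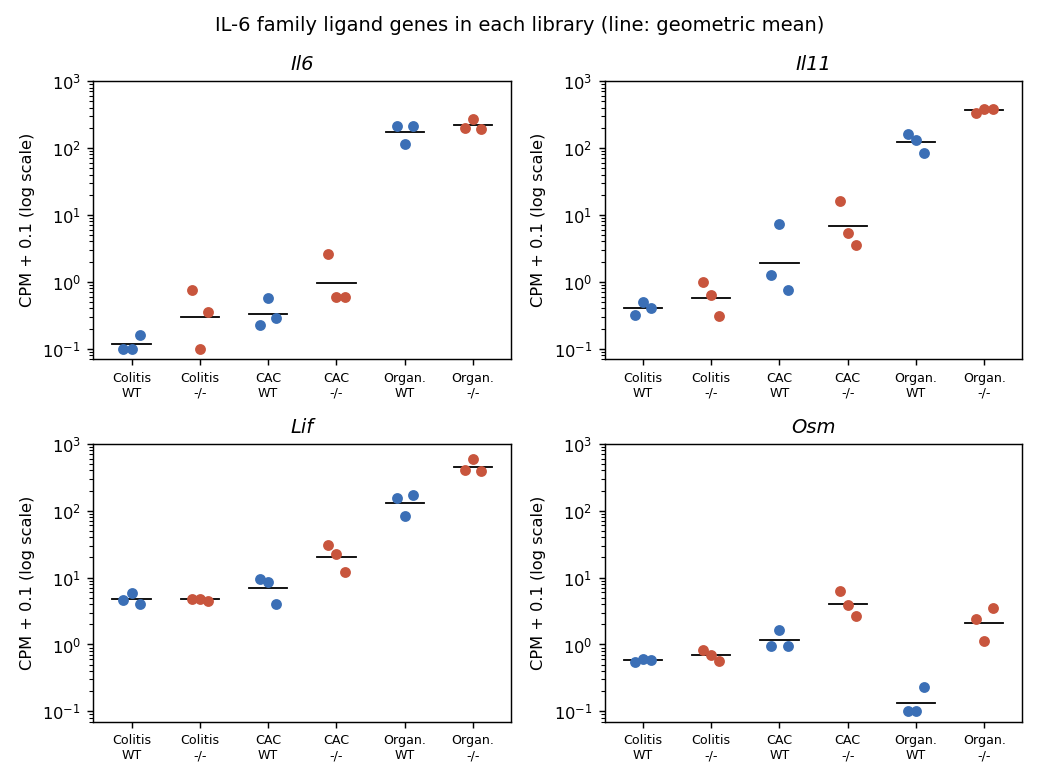
The 4 ligand genes in each of the 18 libraries, as TMM-normalised CPM plus 0.1 on a log axis, with wild type in blue, libraries labelled RNF138-/- in red, and a line at the geometric mean of each group of 3. *Il6*, *Il11* and *Lif* stood at 84.0 CPM or more in every organoid library, while *Osm* was between 0 and 0.135 CPM in the wild-type organoids and highest, at 6.17 CPM, in a labelled knockout CAC library.

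The receptor chains were measured in every library of every group. *Il6ra* (ENSMUSG00000027947.11, chromosome 3, 89864059 to 89913196, minus strand) encodes the chain that binds IL-6. Colitis libraries had 18.6, 16.3 and 16.2 CPM in wild type and 13.8, 21 and 22.5 in the labelled knockouts, which overlapped (log2 fold change 0.17, SE 0.24 and edgeR adjusted p = 0.871). CAC libraries had 12.6, 17.6 and 10.2 CPM in wild type and 10.8, 9.43 and 9.51 in the labelled knockouts (log2 fold change -0.49, SE 0.24 and edgeR adjusted p = 0.191). In contrast to the ligands, *Il6ra* fell from colitis to CAC in the labelled knockouts, by a log2 fold change of -0.94 (SE 0.23 and edgeR adjusted p = 0.00258), just under a 2-fold difference. In the organoids the genotypes separated, at 24.9, 21.3 and 15.4 CPM in wild type and 35.7, 41.2 and 40.0 in the labelled knockouts. This was a 1.85-fold rise (log2 fold change 0.89, SE 0.18 and edgeR adjusted p = 0.00831). Antisense to 2.29% of its 50-base windows lies another annotated gene, and whether the counting used strand is not given in the sources used here.

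*Il11ra1* (ENSMUSG00000073889.10, chromosome 4, 41699989 to 41769474, plus strand) encodes the chain that binds IL-11, and a near copy such as *Gm13305* holds 46.3% of its 50-base windows, so its counts are uncertain. *Gm13305* had at most 14 counts in a library, and *Il11ra2* was not analysed here. The gene ran opposite to its ligand in the tissues, with 54.1, 57.8 and 38.3 CPM in wild-type colitis and 29.2, 27.0 and 26.5 in wild-type CAC colon. It fell between these groups (log2 fold change -0.86, SE 0.29 and edgeR adjusted p = 0.0487), which no longer passed without any 1 of the 6 libraries other than the third colitis one, at adjusted p from 0.0832 to 0.121. In the labelled knockouts it had 101, 49.4 and 42.2 CPM in colitis and 14.8, 15.8 and 23.6 in CAC. The CAC level was 3.55-fold lower (log2 fold change -1.83, SE 0.30 and edgeR adjusted p = 0.000127). Within CAC all 3 labelled knockouts were below all 3 wild-type libraries (log2 fold change -0.66, SE 0.21 and edgeR adjusted p = 0.086). The organoids had 124, 81.3 and 77.4 CPM in wild type and 122, 156 and 125 in the labelled knockouts, which overlapped (log2 fold change 0.47, SE 0.19 and edgeR adjusted p = 0.0843).

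*Osmr* (ENSMUSG00000022146.12, chromosome 15, 6813577 to 6874969, minus strand) encodes the oncostatin M receptor chain of fibroblasts, endothelium and epithelium. Colitis libraries had 11.1, 11.7 and 17.7 CPM in wild type and 20.8, 16.9 and 26.1 in the labelled knockouts (log2 fold change 0.65, SE 0.26 and edgeR adjusted p = 0.444). In CAC they had 19.4, 22.5 and 13.9 against 38.6, 28.9 and 23.1 CPM, without overlap (log2 fold change 0.65, SE 0.26 and edgeR adjusted p = 0.134). The difference in the organoids was wider, with 74.2, 37.7 and 37.4 CPM in wild type and 163, 237 and 178 in the labelled knockouts. *Osmr* thus rose 3.77-fold (log2 fold change 1.91, SE 0.28 and edgeR adjusted p = 0.00299). *Osmr* was the receptor chain with the largest log2 fold change between the organoid genotypes. The first wild-type organoid library, the highest of its group for *Osmr*, was also the highest for the fibroblast markers, at 23238 CPM summed against 9097 and 9748. Without that library the log2 fold change was 2.34.

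*Il6st* (ENSMUSG00000021756.12, chromosome 13, 112464070 to 112510086, plus strand), the gene of the shared chain gp130, varied least between the tissues. It had 143, 120 and 151 CPM in wild-type colitis and 209, 139.7 and 155 in the labelled knockouts, and in CAC 114, 146 and 118 against 125, 134 and 138. Neither genotype difference passed, at log2 fold changes of 0.28 (SE 0.20 and edgeR adjusted p = 0.709) in colitis and 0.02 (SE 0.14 and edgeR adjusted p = 0.943) in CAC. In the organoids the levels were 266, 168 and 227 CPM in wild type and 357, 482 and 445 in the labelled knockouts. The groups were separate and *Il6st* rose 1.89-fold (log2 fold change 0.92, SE 0.19 and edgeR adjusted p = 0.00831). Against CAC colon it rose by 0.80 in wild-type organoids (SE 0.20 and edgeR adjusted p = 0.00218) and by 1.69 in the labelled knockouts (SE 0.20 and edgeR adjusted p = 3.27e-06).

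*Stat3* (ENSMUSG00000004040.16, chromosome 11, 100885098 to 100939540, minus strand) encodes the transcription factor that the shared chain activates. Counts measure its RNA and not its phosphorylation. In colitis its level was even, at 144, 125 and 131 CPM in wild type and 135, 132 and 120.2 in the labelled knockouts (log2 fold change -0.05, SE 0.16 and edgeR adjusted p = 0.949). CAC libraries had 165, 165 and 150.1 CPM in wild type and 304, 213 and 214 in the labelled knockouts. Every labelled knockout was above wild type (log2 fold change 0.55, SE 0.18 and edgeR adjusted p = 0.097). Organoids had 373, 284 and 363 CPM against 354, 421 and 401, which overlapped (log2 fold change 0.17, SE 0.14 and edgeR adjusted p = 0.365). *Stat3* rose from colitis to CAC in the labelled knockouts, 1.89-fold (log2 fold change 0.92, SE 0.16 and edgeR adjusted p = 0.000227), and from CAC to organoids in wild type, 2.12-fold (log2 fold change 1.09, SE 0.16 and edgeR adjusted p = 3.55e-05), which without scaling factors was 0.92 and under 2-fold. In the labelled knockouts the rise from CAC to organoids was 1.61-fold (0.69, SE 0.16 and edgeR adjusted p = 0.00165), and 0.07 on the log2 scale without scaling factors (adjusted p = 0.728).

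*Socs3* (ENSMUSG00000053113.3, chromosome 11, 117966079 to 117970047, minus strand) encodes the inhibitor that STAT3 induces. In colitis it had 19.0, 23.9 and 11.5 CPM in wild type and 68.3, 32.9 and 19.1 in the labelled knockouts, which overlapped in spite of a log2 fold change of 1.13 (SE 0.46 and edgeR adjusted p = 0.449), or of 0.52 without the first labelled knockout library. In CAC it had 29.5, 40.1 and 15.9 CPM in wild type and 130, 74.1 and 65.1 in the labelled knockouts. Those CAC groups did not overlap, and the log2 fold change of 1.60 just missed the threshold by edgeR (SE 0.40, adjusted p = 0.0589) and passed by DESeq2 (1.62, adjusted p = 0.00285). In the organoids the levels were 201, 141 and 153 CPM in wild type and 227, 290.3 and 253 in the labelled knockouts. *Socs3* rose 1.51-fold there (log2 fold change 0.60, SE 0.16 and edgeR adjusted p = 0.021). This no longer passed without the second or the third library of either genotype (adjusted p from 0.0557 to 0.0807) or in the fit of all 18 libraries (adjusted p = 0.309). From CAC to organoids *Socs3* rose by 2.53 in wild type (SE 0.43 and edgeR adjusted p = 0.000128) and by 1.52 in the labelled knockouts (SE 0.42 and edgeR adjusted p = 0.00511), the latter at 0.90 and an adjusted p of 0.0564 without scaling factors. Its rise from colitis to CAC in the labelled knockouts, 1.16 (SE 0.41 and edgeR adjusted p = 0.0257), was 1.79 without the first labelled knockout colitis library. It was lost without the second (0.97) or the third (0.77) labelled knockout colitis library, without the first labelled knockout CAC library (0.80), and in a fit of only the 6 libraries compared (1.13, adjusted p = 0.0774).

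**Figure D2:**
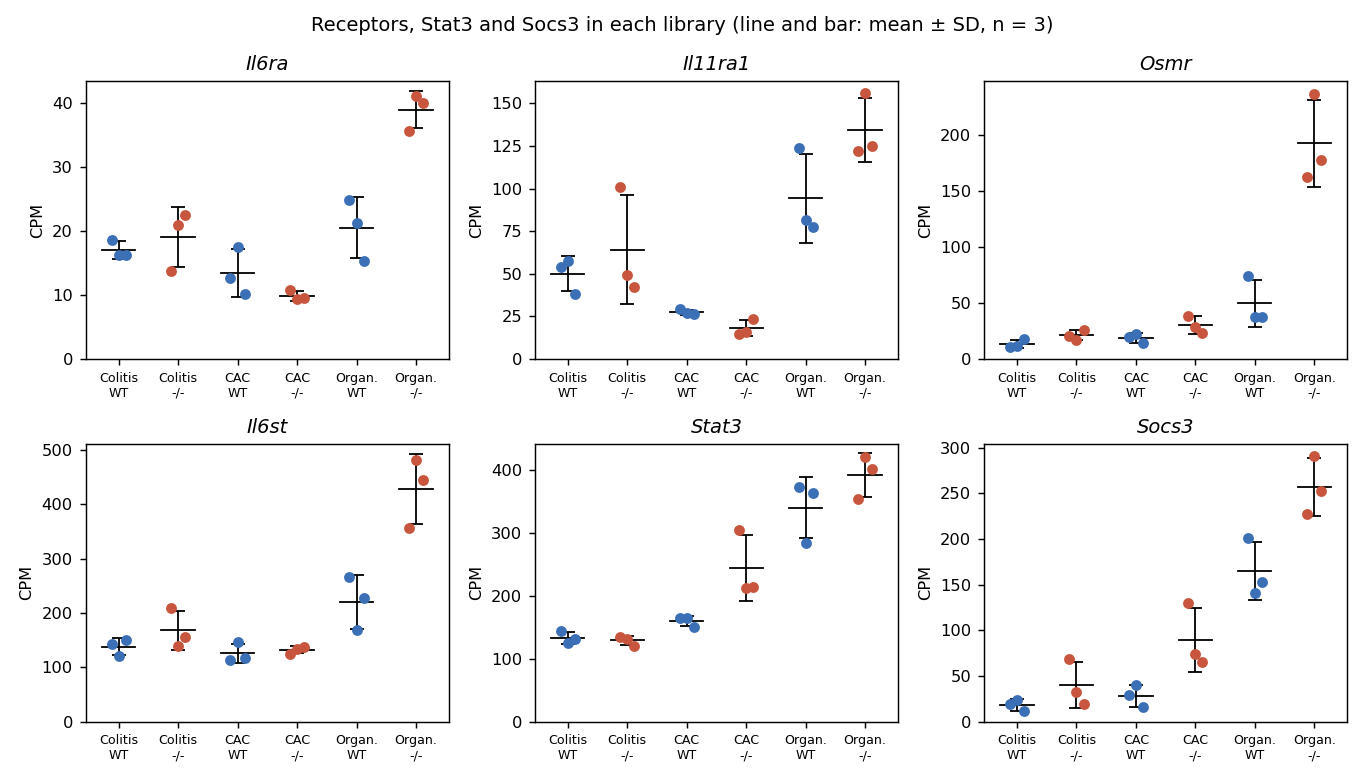
The 4 receptor chains, *Stat3* and *Socs3* in each library, as TMM-normalised CPM on a linear axis from 0, with wild type in blue, libraries labelled RNF138-/- in red, and lines and bars at the mean ± SD of 3 libraries. The labelled knockout organoids were above all wild-type organoids for *Il6ra*, *Osmr*, *Il6st* and *Socs3*, while *Il11ra1* and *Stat3* overlapped.

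Whether the genotype difference itself differed between the models was tested as an interaction in the fit of all 18 libraries. Between CAC and colitis only *Lif* passed, with a genotype difference larger in CAC by 1.59 on the log2 scale (SE 0.51 and edgeR adjusted p = 0.0487; 2.57% of 19390 genes were called higher). It was lost without any 1 of 10 of the 12 libraries compared. *Osm* (3.50, SE 0.96 and edgeR adjusted p = 0.0161), *Il6ra* (1.37, SE 0.32 and edgeR adjusted p = 0.00679) and *Osmr* (1.26, SE 0.41 and edgeR adjusted p = 0.037) had larger differences in the organoids than in CAC (11.4% of genes were called higher). *Osmr* was lost without any 1 of 8 of the 12 libraries. Without scaling factors *Il6ra* was at 0.95 (adjusted p = 0.0564) and *Osmr* at 0.85 (adjusted p = 0.129). With scaling factors, *Il6st* passed on the adjusted p with a difference under 2-fold (0.89, SE 0.27 and edgeR adjusted p = 0.0292). For *Osm* the fitted value leans on 2 counts in the wild-type organoids and has no exact size. Against colitis, *Osm* (5.12, SE 1.0 and edgeR adjusted p = 0.00886) and *Lif* (1.80, SE 0.50 and edgeR adjusted p = 0.0409) differed more in the organoids (3.52% of genes). *Lif* was lost here without any 1 of 11 of the 12 libraries. *Il11* did not pass in any of these tests, with differences of 0.57 (SE 1.34) for CAC against colitis, 0.18 (SE 0.86) for organoids against CAC and 0.75 (SE 1.31) for organoids against colitis.

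Without a call, 6 of the 10 genes still had all 3 labelled knockout CAC libraries above all 3 wild-type ones (24.5% of 17752 genes did), namely *Il6*, *Lif*, *Osm*, *Osmr*, *Stat3* and *Socs3*, and 1 had them below, *Il11ra1* (20.7% of genes). An exact permutation test of 3 libraries against 3 cannot go below p = 0.1 (two-sided), the value that each of these genes had. The first labelled knockout CAC library was the highest of its group for 8 of the 10 genes, and the third wild-type CAC library, the shallowest of all, was the lowest of its group for 8. In the organoids 7 of the 10 genes did not overlap, with the labelled knockouts higher (27.6% of 15294 genes), and 0 did so the other way (25.7% of genes). The second labelled knockout organoid library was the highest of its group for 9 of the 10.

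**Figure D3:**
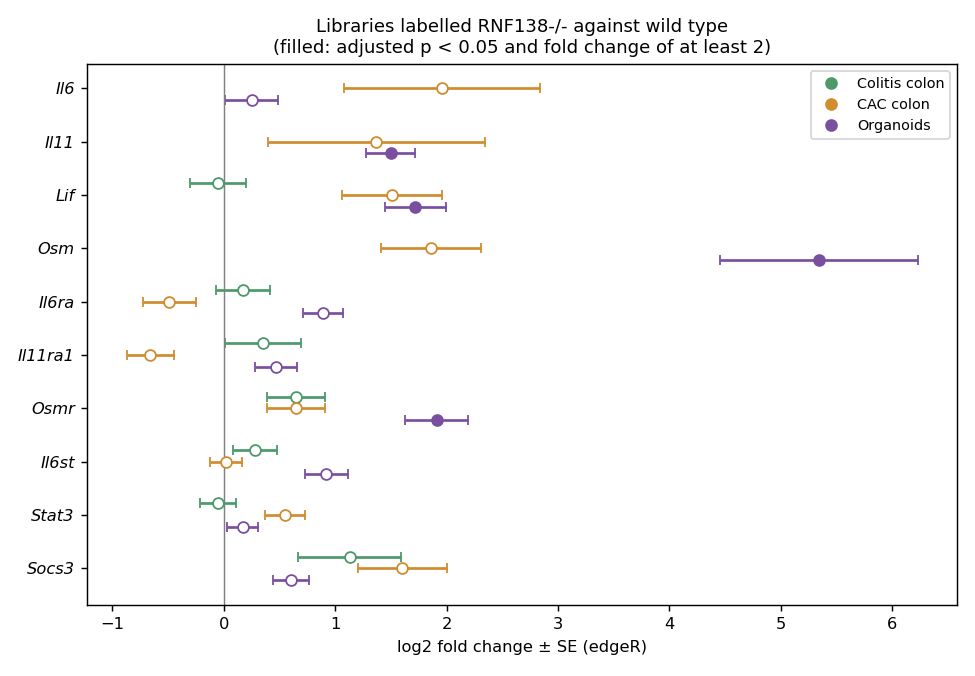
Log2 fold change ± SE (edgeR) of the libraries labelled RNF138-/- against wild type for each member in colitis colon, CAC colon and organoids, with filled points for called genes. The filled points are *Il11*, *Lif*, *Osm* and *Osmr* in the organoids, and *Il6*, *Il11* and *Osm* have no point in colitis because they were too low to be tested.

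**Figure D4:**
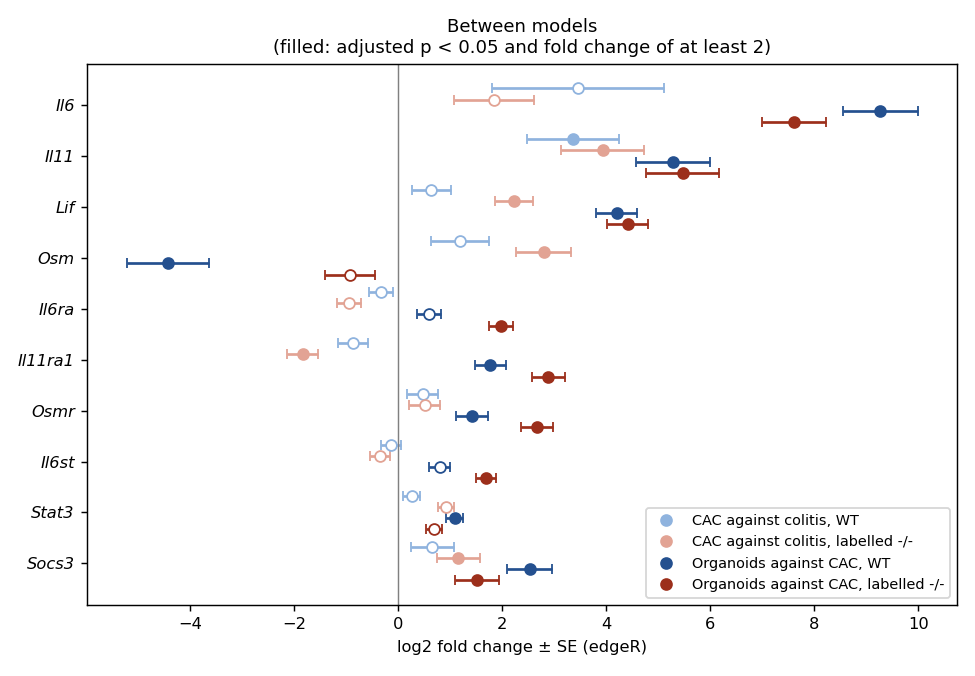
Log2 fold change ± SE (edgeR) of CAC against colitis colon and of organoids against CAC colon for each member and genotype, with filled points for called genes. *Il6* reached 9.27 in wild-type organoids, and *Osm* is the member with a filled point to the left of 0 in the organoids.

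Markers of other cell types moved with these groups. Summed neutrophil markers went from 2.79 to 3.31 CPM in wild-type colitis to 52.5 to 116 in wild-type CAC and 164 to 355 in labelled knockout CAC. All 6 of them were called higher in CAC than in colitis in both genotypes, and 0 of 6 between the CAC genotypes by edgeR. Smooth muscle markers went the other way in CAC, at 2505 to 8374 CPM in wild type and 113 to 241 in the labelled knockouts, with 5 of 5 called lower, as were 6 of 6 markers of B and plasma cells (1505 to 2267 against 125 to 215 CPM). Over all genes 857 of 17752 were called lower there by edgeR. Without the first or the second labelled knockout CAC library 0 genes were called in the whole table, these markers included. In the organoids 5 of 6 fibroblast markers were called higher in the labelled knockouts, at 40427 to 49682 CPM summed against 9097 to 23238, beside the calls of *Il11*, *Lif* and *Osmr*. Summed neutrophil markers in the organoids were 47.0 to 89.5 CPM in wild type and 66.1 to 82.2 in the labelled knockouts. Of the 6 markers only *Retnlg* was at 0 in all 6 libraries, but the sum does not stand for each marker. Against CAC colon, 5 of the 6 were called lower in wild-type organoids (26.8% of all genes) and 1 higher (17.5%). In the labelled knockouts 5 were called lower (26.5%) and 0 higher (17.9%). Between the organoid genotypes only 2 of the 6 passed the filter on low counts. Of these, 1 was called lower in the labelled knockouts (7.04% of all genes). T cell markers summed to at most 0.346 CPM there. Genes of the Y chromosome were at 0 in all wild-type organoid libraries and summed to 242 to 281 CPM in the labelled knockouts, so that genotype and sex of the donor cannot be told apart in the organoids. The part of the cell types in the members' differences was not tested, and in bulk RNA fewer cells of a type and less RNA per cell cannot be told apart.

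**Figure D5:**
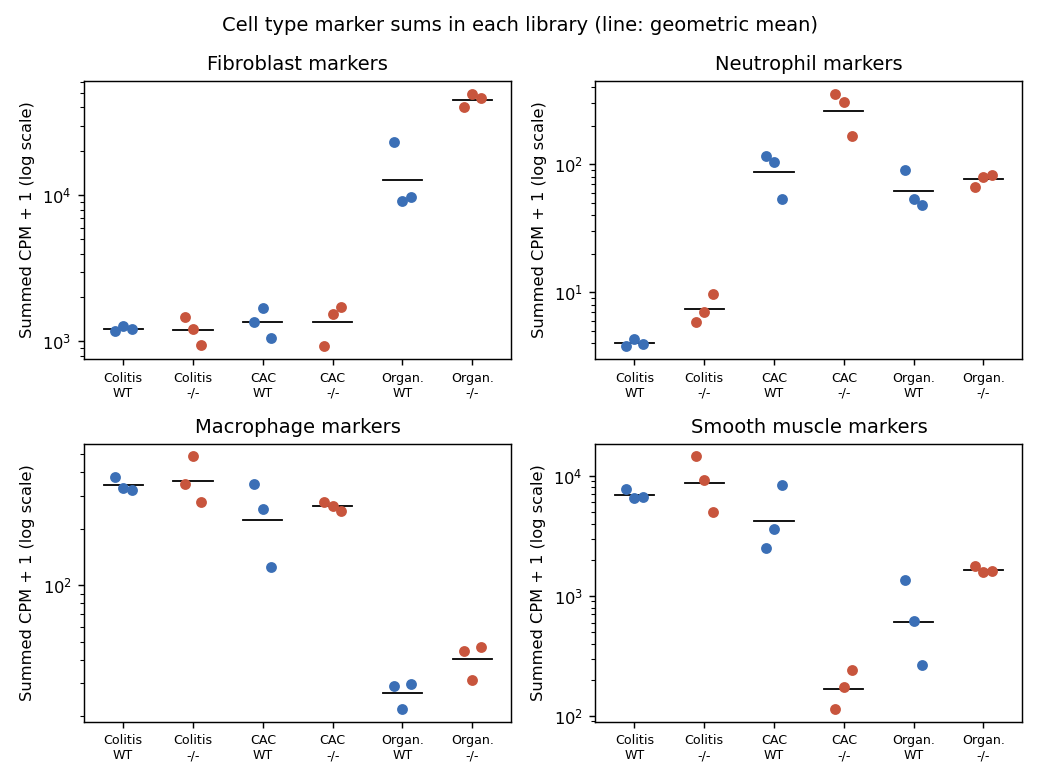
Summed CPM plus 1 of fibroblast, neutrophil, macrophage and smooth muscle markers in each library on a log axis, with wild type in blue, libraries labelled RNF138-/- in red and a line at the geometric mean. Fibroblast markers were at 40427 to 49682 CPM in the labelled knockout organoids, and smooth muscle markers at 113 to 241 CPM in labelled knockout CAC.

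The rest of the pathway was followed in a list of 28 further ligands, receptors, kinases and inhibitors, 27 of which were in the table. Between the genotypes, 0 of the 22 tested were called in colitis (0.0902% of all genes) and 0 of the 23 tested in CAC (5.37% of all genes) by edgeR. At an unadjusted p under 0.05 there were 3 and 5, and the share of all genes at that level was not counted. DESeq2 called 2 and 0, and over all genes in colitis it called 190 higher and 135 lower. In the organoids 23 were tested (7.04% of all genes were called lower). *Il27*, which encodes a subunit of interleukin 27, was called lower there and fell from 54 counts to 3. That is an 18.7-fold lower count per TMM-scaled library size (exact 95% interval 6.08 to 93.7, counting error only). The kinases were named after their values were seen, *Jak1* with a log2 fold change of 0.79 (SE 0.16 and edgeR adjusted p = 0.00864) and *Jak2* with 0.65 (SE 0.16 and edgeR adjusted p = 0.0174) in the labelled knockout organoids, both under 2-fold. The median over the 23 was 0.39 on the log2 scale, against -0.04 over all genes tested. In CAC the median of the list was 0.0, against 0.01, and in colitis 0.11, against 0.02.

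Between the models, 8 of the 24 tested were called higher and 3 lower in wild-type organoids than in CAC colon (17.5% and 26.8% of all genes), and 9 higher and 4 lower in the labelled knockouts (17.9% and 26.5%). *Lifr*, the receptor partner for *Lif*, rose from 18.9 ± 6.71 to 66.6 ± 6.40 CPM in wild type (log2 fold change 1.81, SE 0.27 and edgeR adjusted p = 4.25e-05) and did not differ by the test between the organoid genotypes (log2 fold change -0.18, SE 0.13 and edgeR adjusted p = 0.323). From colitis to CAC, *Clcf1*, a further gp130 cytokine, rose in wild type from 1.90 ± 0.488 to 7.90 ± 2.59 CPM (log2 fold change 2.07, SE 0.33 and edgeR adjusted p = 0.000483) and *Cntfr*, a receptor chain for it, fell from 3.16 ± 0.977 to 0.698 ± 0.145 (log2 fold change -2.19, SE 0.46 and edgeR adjusted p = 0.00375). *Socs1*, another inhibitor, fell in the labelled knockouts from 27.8 ± 34.4 CPM, an SD above its mean, to 2.94 ± 0.321 (log2 fold change -3.24, SE 0.69 and edgeR adjusted p = 0.00103). Without the first labelled knockout colitis library its log2 fold change was -1.45.

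Genes known to respond to STAT3 were followed in a list of 24, several of which also respond to NF-κB. Between the genotypes in CAC, 3 of 22 tested were called higher by edgeR (0.546% of all genes were) and 0 lower, while DESeq2 called 7 higher and 1 lower. The median over the list was 0.58 on the log2 scale in CAC, against 0.01 over all genes tested, and 0.59 in colitis, against 0.02. In the organoids it was 0.2, against -0.04. The 3 were *Reg3g*, an antibacterial lectin of the epithelium (27.0 ± 21.3 CPM in wild type and 513 ± 429 in the labelled knockouts, log2 fold change 4.19, SE 0.84 and edgeR adjusted p = 0.0426), and the acute phase genes *Hp* (2.11, SE 0.39 and edgeR adjusted p = 0.0381) and *Saa3* (1.46, SE 0.27 and edgeR adjusted p = 0.0381). Each of these 3 calls was lost without any 1 of the 6 libraries other than the third wild-type one, and 0 to 5 of the list were called higher across these fits. In colitis 0 of 22 were called by edgeR, with 9 at an unadjusted p under 0.05 and 1 called by DESeq2. The share of all genes at that unadjusted p was not counted, so the 9 is no result about this list. In the organoids 1 of 23 was called higher and 2 lower (7.94% and 7.04% of all genes were). *Hp* was called higher (28.2 ± 11.4 against 236 ± 28.2 CPM, log2 fold change 3.02, SE 0.27 and edgeR adjusted p = 0.000749). The lower ones were *Lrg1* (-1.13, SE 0.29 and edgeR adjusted p = 0.019) and *Lcn2* (-1.02, SE 0.29 and edgeR adjusted p = 0.0264). Without the second wild-type library *Lrg1* was at -0.76 and *Lcn2* at -0.60, neither of them called. *Lrg1* was also lost without the second labelled knockout library (-0.92), and *Lcn2* without any 1 of the 3 labelled knockouts (-1.13 to -0.94). *Lcn2* was also not called under RLE normalization, without a filter on low counts, by DESeq2 or in the fit of all 18 libraries, and *Lrg1* not in the last of these.

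From colitis to CAC 8 of 24 of these genes were called higher and 1 lower in wild type (9.78% and 3.81% of all genes were). In the labelled knockouts 10 were called higher and 3 lower (17.5% and 19.6% of all genes). *Hp* rose from 0.893 ± 0.340 to 21.3 ± 8.19 CPM in wild type (log2 fold change 4.58, SE 0.50 and edgeR adjusted p = 2.18e-05), and *Saa3* from 1.81 ± 0.944 to 36.4 ± 11.7 (log2 fold change 4.33, SE 0.53 and edgeR adjusted p = 5.2e-05). In wild-type organoids 12 of 24 were called higher than in CAC colon and 3 lower (17.5% and 26.8% of all genes), and in the labelled knockouts 12 higher and 6 lower (17.9% and 26.5%). *Timp1*, an inhibitor of matrix proteases, rose from 9.31 ± 4.24 to 743 ± 276 CPM (log2 fold change 6.30, SE 0.45 and edgeR adjusted p = 3.49e-08), and *Cebpb*, a transcription factor of the acute phase, from 5.18 ± 0.960 to 179.8 ± 24.2 (log2 fold change 5.11, SE 0.47 and edgeR adjusted p = 4.06e-07).

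Over the 12 colon libraries, the pattern most like that of each member was looked up among 16001 genes with a mean of at least 1 CPM, by Pearson's r of log2 values. These values are descriptions, since the libraries share model and genotype. *Osm* was most like *Rbm28* (r = 0.976) and next like *Stat3* (r = 0.965), the only member that came up among the 3 nearest genes of another. *Il11* was most like the neutrophil chemokine gene *Cxcl3* (r = 0.961), *Lif* like *Gstm5* (r = 0.978), *Socs3* like *Smyd5* (r = 0.95) and *Il11ra1* like *Upp2* (r = 0.975). *Il6st* had no gene above r = 0.879, and *Il6* was below 1 CPM and was left out.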

How the data were processed

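The authors deposited whole-number read counts per gene for 18 libraries, without normalization, and a second table of their own log2 fold changes and p-values, which was not used. The submitters' processing notes name STAR 2.6.1d, HTSeq 0.11.2, DESeq2 and mm10, while the study's methods name Cufflinks, and whether strand was used is not given in the sources used here. The series text names another Illumina sequencer than the methods.

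Counts were normalised by TMM, filtered with filterByExpr and tested by edgeR 4.0.16 (R 4.3.3) with glmQLFTest, each model separately for genotype and all 18 libraries together for models and interactions, with Benjamini-Hochberg adjustment over all genes tested. DESeq2 1.42.0 was an alternative. Positions and exon lengths come from GENCODE M21 (36700 of 36757 identifiers matched, 99.84%). The named genes are the 10 members, *Rnf138*, *Lifr*, up to 4 called genes with the largest changes per list and comparison, and the nearest genes by correlation. The members and lists were chosen with earlier results of these data known. The fits were tested on simulated data. Replicate numbers were not taken to pair the samples, since in no model did every same-numbered pair correlate above 0.1. Depth limits low genes: a floor of 3 counts and all intervals (95%, exact) cover counting error only. Results for some genes of the pathway list are not reported here.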

Additional observations from a re-analysis of the deposited data

Results flagged for a closer look

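The difference between labelled RNF138-/- and wild-type libraries differed between models for 4 of the 10 genes, by a test of the interaction itself (edgeR, 18 libraries). Over all genes 2.57% had a larger difference in CAC than in colitis, 11.4% in the organoids than in CAC and 3.52% in the organoids than in colitis. For *Lif* it was larger in CAC than in colitis by 1.59 on the log2 scale (SE 0.51, adjusted p = 0.0487) and larger in the organoids than in colitis by 1.80 (SE 0.50, adjusted p = 0.0409), and these were lost without any 1 of 10 and of 11 of the 12 libraries. For *Osm* it was larger in the organoids than in CAC by 3.50 (SE 0.96, adjusted p = 0.0161) and than in colitis by 5.12 (SE 1.0, adjusted p = 0.00886), both resting on 2 counts in the wild-type organoids. For *Il6ra* the difference was larger in the organoids than in CAC by 1.37 (SE 0.32, adjusted p = 0.00679), and for *Osmr* by 1.26 (SE 0.41, adjusted p = 0.037), the latter lost without any 1 of 8 of the 12 libraries. Without scaling factors these were 0.95 (adjusted p = 0.0564) and 0.85 (adjusted p = 0.129). Fibroblast markers, macrophage markers and the Y-linked genes also differed between the organoid genotypes, and their part was not tested.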

How the results depend on the processing

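Between the CAC genotypes edgeR called 0 of the 10 genes, DESeq2 3, the fit of all 18 libraries 3, and no filter on low counts 2, while the genes called higher over the whole table went from 97 to 560, 729 and 226. Leaving out 1 library at a time gave 0 in CAC and in colitis, which says nothing of stability, since several of these fits called 0 to 2 genes in the whole table. It gave 4 to 6 in the organoids, 0 to 2 for CAC against colitis in wild type and 4 to 7 in the labelled knockouts, and 8 in both comparisons of organoids with CAC. An adjusted p under 0.05 without the fold threshold gave 7 in the organoids and 2 for CAC against colitis in wild type, where DESeq2 also gave 2 and a fit of only the 6 libraries 0. For the interactions, leaving out 1 library gave 0 to 1 (CAC and colitis), 2 to 5 (organoids and CAC) and 1 to 3 (organoids and colitis). The first was 0 under RLE normalization and under a filter of 1 CPM in 3 libraries, and the others were 1 each without a scaling factor. Directions turned for *Il11ra1* in colitis without labelled knockout library 1 (-0.13 to 0.58 over all left-out libraries), *Lif* in colitis without wild-type library 2 (-0.16 to 0.10), *Stat3* in colitis without wild-type library 1 (0.00087, with -0.10 the lowest), *Il6st* in CAC without wild-type library 1 (-0.06) or 3 (-0.0038, with 0.14 the highest), and *Stat3* in the organoids without a scaling factor (-0.04), none of which had passed. Without a scaling factor the median of all genes moved to 0.27 in CAC, -0.24 in the organoids and -0.84 for labelled knockout organoids against CAC, and the calls over all genes went from 1215 higher and 1077 lower to 936 and 1654 in the organoids, from 3392 and 3804 to 4789 and 2932 for CAC against colitis in the labelled knockouts, and from 3466 and 5138 to 2177 and 8153 for labelled knockout organoids against CAC. The cause of these changes was not tested. A fit with the summed Y-linked genes as covariate was not run in the organoids, where they divide the libraries as the genotype does.

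Same-numbered replicates did not all deviate together in any model (r from -0.181 to 0.054 for organoid pairs, 0.028 to 0.207 for CAC pairs and 0.092 to 0.483 for colitis pairs), and in colitis 1 of the 3 pairs was under 0.1, so the number was used as a replicate block only as an alternative, which called 1 member in CAC, *Lif*, and left *Socs3* in the organoids at an adjusted p of 0.0523. With the block *Reg3g* (0.058) and *Saa3* (0.0612) in CAC and *Lrg1* (0.0534) and *Lcn2* (0.0564) in the organoids no longer passed, and *Saa3* did not pass with the Y-linked covariate either (0.0588).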
